A study of Homo sapiens with 16 samples.

Results

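The comparison set SH-SY5Y cells differentiated on an electrically stimulated film of P(rGO), in which reduced graphene oxide is held in a polymer, against the same cells differentiated on culture plates without film or stimulation. SH-SY5Y, a line grown from a human neuroblastoma, a tumour of the sympathetic lineage, stops dividing and grows neurites when it is given retinoic acid and the neurotrophin BDNF. The libraries were taken by their labels, 2 of stimulated P(rGO) and 2 of differentiated plates, which are 4 of the 16 libraries of polyadenylated RNA in the series. The 2 replicates are labelled NB33 and NB34. Genes were all those with enough counts, 18081 of 69222 gene rows.

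Every group used here except untreated plates had the same differentiation. Serum was cut to 5% (day 2), 2.5% (day 3) and 1% (day 5), with 10 µM retinoic acid between days 3 and 6 and then 50 ng/mL BDNF for 4 days. In the stimulated groups a square wave (0.1 V peak to peak, 1 Hz) ran for 8 h on each of the last 4 days. Unstimulated P(rGO), stimulated PEDOT:PSS (a conducting polymer blend), stimulated ITO (indium tin oxide) and untreated plates, with 2 libraries each, served for further comparisons. By the labels, the films were coated with laminin over poly-L-lysine, whereas no coat is named for plates. Film, coat and stimulation therefore cannot be told apart in a difference from plates, and the comparison with unstimulated P(rGO) is the one in which only stimulation differs by label.

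Several gene programs bear on such a culture. Immediate early genes, such as FOS and the EGR family, are switched on within minutes by calcium entry, growth factor signalling through the ERK kinase, or stress, and need no new protein for it. NRF2 is a transcription factor that drives antioxidant enzymes, while MTF1 drives metallothioneins, small zinc-binding proteins, through metal response elements. Cells that leave the cell cycle lose the transcripts of mitosis and DNA replication, whose promoters are held silent by a repressor complex, DREAM. The identity of SH-SY5Y rests on the adrenergic set of neuroblastoma transcription factors, among them HAND2, GATA3 and ISL1.

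Reads assigned to genes numbered 19431872 and 17984014 in the libraries of stimulated P(rGO) and 18455213 and 19756694 in those of plates, within a range of 15600410 to 20851000 over all libraries. CPM stands for the read count scaled to the effective size of its library. The 13 markers of the labelled sympathoadrenal cell type, of which CHGA was at 0 in every library, summed to 7336 and 7207 CPM on stimulated P(rGO) and to 7990 and 8402 CPM on plates. Markers of immune cells summed to 3.76 and 2.13 CPM on stimulated P(rGO) and 1.25 and 2.30 CPM on plates, with PTPRC at 0 in all 4. Epithelial markers summed to 17.6 and 10.6 CPM on stimulated P(rGO) and 7.82 and 10.04 CPM on plates, and Schwann cell and glial markers to 8.57 and 6.70 CPM on stimulated P(rGO) and 5.75 and 6.04 CPM on plates, with SOX10 at 0 in every library. Both sums were higher in both stimulated libraries, and their part in the results was not tested. Endothelial markers summed to 2.14 and 2.50 CPM on stimulated P(rGO) and 1.68 and 4.14 CPM on plates. Fibroblast markers summed to 244 and 205 CPM on stimulated P(rGO) and to 263 and 234 CPM on plates. Of the 11 tested singly, 8 were higher on stimulated P(rGO) and 3 lower, with a median log2 fold change of 0.46. Of all 18081 genes tested, 8986 were higher. Whether the replicates were separate cultures is not stated, so the p-values set differences against a spread between libraries that may be technical. In bulk RNA, fewer cells of a kind and less RNA per cell cannot be told apart.

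Replicates of these 2 groups stood apart from each other more than those of the other film groups. The coefficient of variation between replicates was 18.1% for stimulated P(rGO) and 18.1% for plates, beside 9.1% for unstimulated P(rGO) and at most 14.2% for the other film groups. On the first principal component of the 6 libraries of P(rGO) and differentiated plates, which held 45.3% of the variance, stimulated P(rGO) lay at 31.2 and 4.13, unstimulated P(rGO) at 30.9 and 25.0, and plates at -61.9 and -29.3. Replicate 1 of the stimulated film was thus farther from plates than replicate 2, and replicate 1 of plates was farther from the film than replicate 2. Mitochondrially encoded genes took 7.33% and 5.37% of assigned reads on stimulated P(rGO) and 8.58% and 5.42% on plates, again with replicate 1 above replicate 2.

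At an adjusted p of at most 0.05 (edgeR's quasi-likelihood test with Benjamini-Hochberg adjustment over all genes tested), 303 genes differed between stimulated P(rGO) and plates, which is 1.68% of those tested. Of these, 151 were higher on stimulated P(rGO) (0.835%) and 152 lower (0.841%), and 227 differed at least 2-fold. The median log2 fold change over all genes tested was -0.002. Both stimulated libraries lay beyond both plate libraries for each of the 303 genes, as they did for 7845 of all genes tested (43.4%). Of the called genes that reached 5 CPM in 1 of the groups, the largest rises included stress and signalling genes (HSPA6, GPNMB, SLC7A11, EGR1, FOS), and the largest falls were in EPAS1, a hypoxia-inducible transcription factor, and in NELL1, SULF2, PTPRD and RPH3A.

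**Figure D1:**
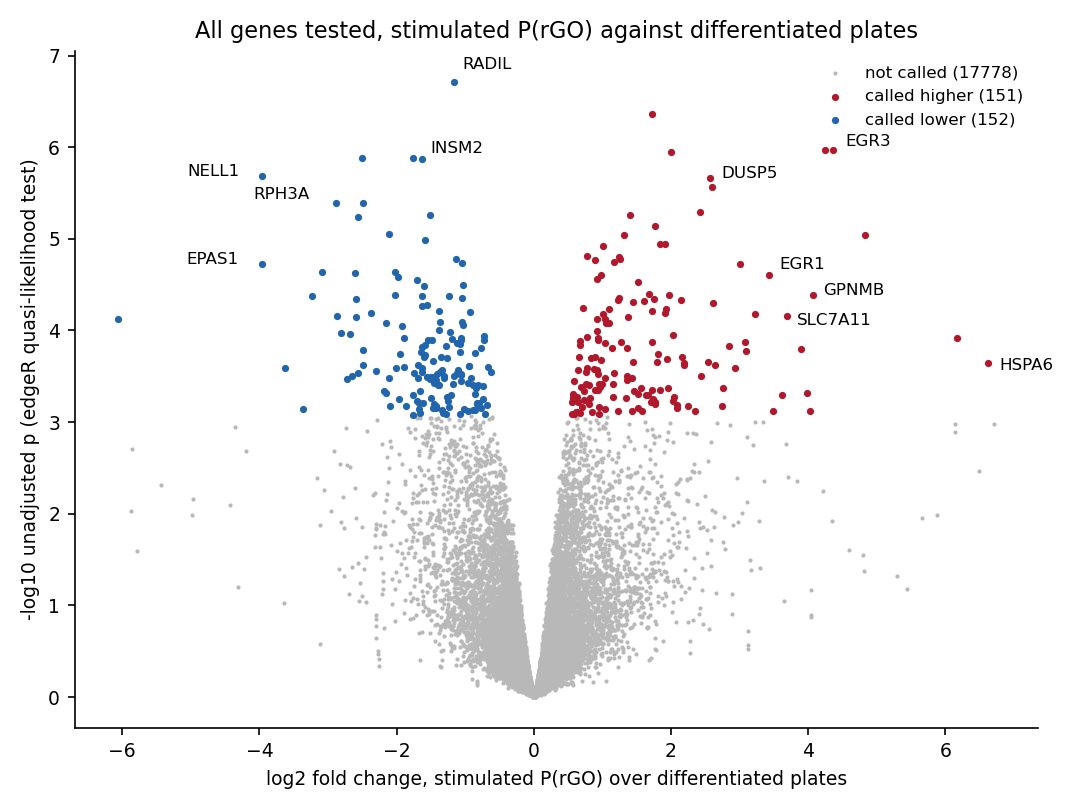
Each point is 1 of 18081 genes, with the log2 fold change of stimulated P(rGO) over differentiated plates on the x axis and the -log10 of the unadjusted p on the y axis; genes called at an adjusted p of at most 0.05 are red (151 higher) or blue (152 lower). The smallest p belongs to RADIL, and HSPA6 has the largest rise among the named genes.

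The calls rested on particular libraries. Without plate replicate 1 only RADIL was called, without stimulated replicate 1 13 genes were called, without stimulated replicate 2 215, and without plate replicate 2 624. Leaving out the 2 untreated libraries, whose replicates had a coefficient of variation of 36.2%, raised the count to 1132. With the untreated libraries left out as well, 99 genes were called without plate replicate 1 and 152 without stimulated replicate 1. None of the 81 genes followed through these fits changed direction in any of them. Each was chosen as a called gene, whose groups do not overlap, so leaving out a library could hardly reverse it. Of the 151 genes called higher, 120 had more in stimulated replicate 1 than in replicate 2, and of the 152 called lower, 127 had more in plate replicate 1 than in plate replicate 2.

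**Figure D2:**
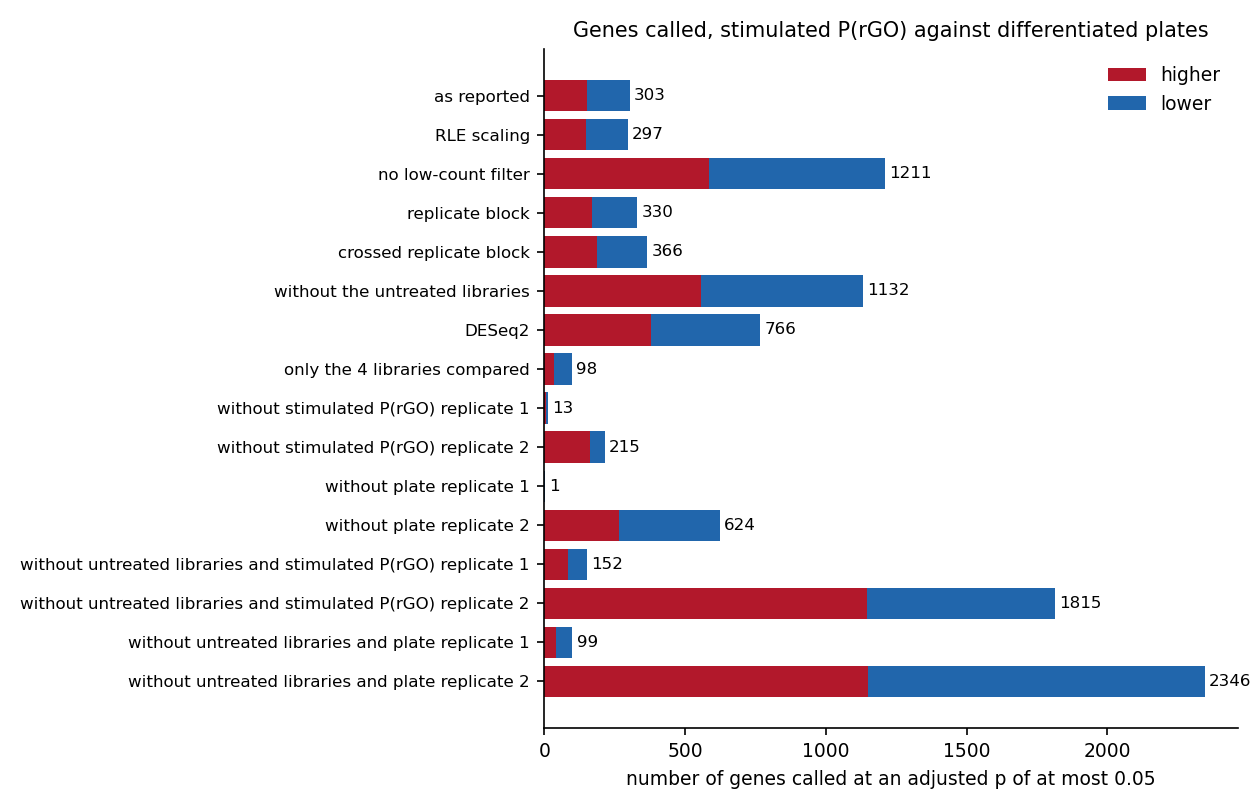
The bars give the number of genes called between stimulated P(rGO) and differentiated plates at an adjusted p of at most 0.05, split into higher (red) and lower (blue), as reported (303) and under each alternative. The count runs from 1 without plate replicate 1 to 2346 without plate replicate 2 and the untreated libraries.

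RADIL, an effector of the GTPase RAP1 in cell adhesion, had the smallest p of all genes and is named here after its values were seen. It lies on chromosome 7 from 4797055 to 4883719 in GRCh38. Its level was 41.8 and 44.1 CPM on stimulated P(rGO), against 93.1 and 99.7 CPM on plates, so that the replicates of each group were close and the groups far apart. The log2 fold change was -1.17 with a standard error (SE) of 0.12 and an adjusted p of 0.00302. Unstimulated P(rGO) was lower still, at 31.7 and 28.9 CPM.

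Immediate early genes were higher on stimulated P(rGO) for 7 of 20 tested members of the list and lower for none, against 0.835% of all genes called higher. The median log2 fold change of the list was 1.09. Against the same plates, unstimulated P(rGO) had 8 members called higher and none lower, with a median of 0.91. Between stimulated and unstimulated film the list median was 0.12, with 11 members above 0 and 9 below. EGR1, a zinc finger transcription factor and the best-known gene of the class, had 465 and 135 CPM on stimulated P(rGO), against 17.4 and 38.4 CPM on plates. Its log2 fold change was 3.42 (SE 0.56, adjusted p 0.0115), with stimulated replicate 1 far above replicate 2 and both above plates. EGR3, a relative of EGR1, had 6.48 and 3.30 CPM on stimulated P(rGO) against 0.0543 and 0.4 CPM on plates, a log2 fold change of 4.35 (SE 0.53, adjusted p 0.00302). FOS, a subunit of the AP-1 factor, had 34.1 and 10.9 CPM on stimulated P(rGO) against 1.47 and 3.79 CPM on plates, a log2 fold change of 3.08 (SE 0.59, adjusted p 0.0222). ARC, a synaptic effector of neuronal activity, had 32.8 and 11.4 CPM on stimulated P(rGO) against 5.32 and 4.59 CPM on plates. EGR2, JUNB and KLF10 made up the 7, with log2 fold changes of 2.74, 1.22 and 0.68. EGR1, EGR3 and FOS stood at 3.21, 4.67 and 2.16 on unstimulated P(rGO) over the same plates.

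The stimulated replicates differed in this program. Replicate 1 was above replicate 2 for 19 of the 20 genes, and the list summed to 1962 and 982 CPM on stimulated P(rGO), 1356 and 1268 CPM on unstimulated P(rGO) and 612 and 750 CPM on plates. Without stimulated replicate 1 only EGR3 stayed called, with a list median of 0.66, and without plate replicate 1 none did, with a median of 0.90. The 13 members not called ran from 0.39 to 1.95 on the log2 scale apart from MYC, at -1.92 (adjusted p 0.0893). CSRNP1, an immediate early nuclear protein outside the list, had 19.0 and 6.27 CPM on stimulated P(rGO) and 0.923 and 1.75 CPM on plates (log2 fold change 3.23, SE 0.58, adjusted p 0.0164).

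EGR1 lies on chromosome 5 from 138465490 to 138469315 on GRCh38. A stretch of its promoter that carries 2 CArG boxes, the binding sequence of serum response factor, is shown. EGR1 was taken because it had the highest CPM among the immediate early genes that rose. The stretch covers the bases from 120 to 61 before the RefSeq start, at chr5:138465359-138465418 on the plus strand (GRCh38.p14), with the boxes in capitals. Bases more than 250 before the start were not searched.
EGR1: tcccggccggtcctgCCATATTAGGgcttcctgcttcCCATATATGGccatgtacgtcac
Among 14 members of the immediate early list with a promoter in the RefSeq table, EGR1 alone held a CArG box on either strand within 250 bases before the start, and 1.14% of all 27305 promoters did. Promoters of EGR3, ARC and KLF10 were not analysed here.

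Feedback genes of the ERK pathway moved in both directions, with a list median of -0.02. Of 17 tested members, 2 were called higher and 1 lower, against 1.68% of all genes called. On unstimulated P(rGO), against the same plates, 5 members were called higher and 1 lower, with a median of 0.16. DUSP5, a nuclear phosphatase that inactivates ERK and is induced by it, had 35.0 and 17.5 CPM on stimulated P(rGO), against 3.64 and 5.14 CPM on plates. Its log2 fold change was 2.57 (SE 0.34, adjusted p 0.0039), and without stimulated replicate 1 it remained called at 1.99. SPRY1, an inhibitor of receptor tyrosine kinase signalling, had 93.7 and 103 CPM on stimulated P(rGO), against 14.2 and 47.6 CPM on plates (log2 fold change 1.67, adjusted p 0.0394). PHLDA1 fell, with 7.11 and 8.13 CPM on stimulated P(rGO) against 17.1 and 22.8 CPM on plates (log2 fold change -1.39, SE 0.30, adjusted p 0.0345). On unstimulated P(rGO), DUSP5, SPRY1 and PHLDA1 stood at 2.92, 2.16 and -1.94 over the same plates. With stimulation DUSP6, SPRED1 and ETV5, also of this feedback, had log2 fold changes between -0.06 and 0.13 and were not called. Without plate replicate 1 no member was called, DUSP5 standing at 2.35 (adjusted p 0.109).

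Antioxidant genes driven by NRF2 were higher for 5 of 24 tested members and lower for none, against 0.835% of all genes called higher. The list median was 0.46. On unstimulated P(rGO), against the same plates, 7 members were called higher and none lower, with a median of 0.53. SLC7A11, the cystine importer that feeds glutathione synthesis, had 27.6 and 8.56 CPM on stimulated P(rGO), against 1.36 and 1.45 CPM on plates (log2 fold change 3.68, SE 0.66, adjusted p 0.0169). NQO1, a quinone reductase, had 33.5 and 28.1 CPM on stimulated P(rGO), against 6.57 and 9.79 CPM on plates (1.91, SE 0.34, adjusted p 0.0164). OSGIN1, an oxidative stress gene, had 10.8 and 4.14 CPM on stimulated P(rGO) and 0.923 and 1.45 CPM on plates (2.65, SE 0.54, adjusted p 0.0294). TXNRD1, thioredoxin reductase, had 340 and 345 CPM on stimulated P(rGO) and 181 and 180 CPM on plates, a difference of 0.92 with close replicates on both sides. On unstimulated P(rGO), SLC7A11, NQO1 and OSGIN1 stood at 2.575, 2.05 and 2.48 over the same plates. MAFG, a DNA-binding partner of NRF2, was the fifth member called on stimulated P(rGO), at 0.87. HMOX1, heme oxygenase, stood at 1.69 with an adjusted p of 0.315 and was not called. Without stimulated replicate 1, or without plate replicate 1, none of the list was called, and the list medians were 0.39 and 0.51.

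Heat shock genes gave 2 calls of 13, both higher, against 0.835% of all genes called higher. They were BAG3, a co-chaperone of HSP70, at 2.04, and DNAJB4, an HSP40 protein, at 0.94. The list median was 0.38. The abundant chaperones HSPA8 and HSP90AB1 were at 0.01 and 0.04 and were not called. HSPA6, a strictly inducible HSP70 outside the list, had 111 and 110 reads on stimulated P(rGO) against 2 and 0 on plates, a 112-fold ratio (95% counting interval 30.6 to 930, counting error only). HSPA6 is nearly identical to other HSP70 genes, so its reads may have been split or dropped. On unstimulated P(rGO) it had 1.43 and 0.637 CPM, below the 5.80 and 5.85 CPM with stimulation. That difference was not called by edgeR's quasi-likelihood test (adjusted p 0.815). On stimulated ITO HSPA6 had 26.6 and 2.30 CPM. BAG3 and DNAJB4 stood at 2.13 and 0.80 on unstimulated P(rGO) over plates. Against plates the adjusted p of HSPA6 was 0.0287 by the same test, and its call was lost when any 1 of the 4 libraries was left out. No heat shock gene was called without stimulated replicate 1 or without either plate replicate.

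Metallothionein and zinc genes had the highest list median, 2.69 over 6 tested members, but 1 call, against 1.68% of all genes called. SLC30A1, the zinc exporter of the plasma membrane, had 98.7 and 59.1 CPM on stimulated P(rGO), against 31.2 and 30.2 CPM on plates (log2 fold change 1.36, SE 0.27, adjusted p 0.0235). On unstimulated P(rGO) it had 43.7 and 39.7 CPM, a log2 fold change of 0.44 over plates (adjusted p 0.391). MT2A, the main metallothionein of most human cells, had 33.6 and 7.33 CPM on stimulated P(rGO), 5.84 and 2.14 CPM on unstimulated P(rGO) and 1.74 and 1.45 CPM on plates, with an adjusted p of 0.0708 against plates. MT1F, at 7.42 and 2.34 CPM on stimulated P(rGO) and 0.76 and 1.30 CPM on plates, had an adjusted p of 0.0613. Stimulated replicate 1 was the higher one for 5 of the 6 genes, and the list median without it was 1.08, with no call. Stimulated ITO showed the same split, with MT2A at 34.4 and 3.15 CPM. MTF1 itself was at 30.7 and 32.1 CPM on stimulated P(rGO) and 34.4 and 34.5 CPM on plates. Metallothionein genes are near-identical to each other, so their reads may have been split or dropped.

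The promoters of MT2A and SLC30A1 are shown as those of the metallothionein with most reads and of the 1 gene of the list that was called. The sequences run up to the RefSeq start (GRCh38.p14), MT2A from 175 bases before it at chr16:56608409-56608583 on the plus strand and SLC30A1 from 75 bases before it at chr1:211579162-211579236 on the minus strand. Capitals mark the core of the metal response element, searched as TGCACNC or TGCGCNC on both strands, with overlaps between matches allowed.
MT2A: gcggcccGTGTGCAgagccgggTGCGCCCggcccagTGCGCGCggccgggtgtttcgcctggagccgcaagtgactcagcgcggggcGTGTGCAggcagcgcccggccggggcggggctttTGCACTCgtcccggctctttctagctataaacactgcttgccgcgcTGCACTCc
SLC30A1: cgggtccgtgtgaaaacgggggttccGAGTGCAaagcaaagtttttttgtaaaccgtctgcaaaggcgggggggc
The core stood at 6 positions in the stretch of MT2A and at 1 in that of SLC30A1. It is a short sequence: 3 of 4 listed genes with a promoter held it within 250 bases before the start, and so did 24.7% of all 27305 promoters. The core was held by 11 of 19 mitosis, 7 of 14 immediate early, 8 of 17 NRF2 and 4 of 13 ERK feedback promoters.

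Mitosis genes were lower on stimulated P(rGO). All but 1 of the 24 tested members had a negative log2 fold change, 8 were called lower and none higher, against 0.841% of all genes called lower, and the median was -1.40. MKI67, the proliferation marker Ki-67 (chromosome 10 from 128096659 to 128126385), had 30.2 and 44.0 CPM on stimulated P(rGO), against 171 and 104 CPM on plates (log2 fold change -1.89, SE 0.36, adjusted p 0.0221). FOXM1, the transcription factor that drives the late cell cycle genes, had 28.6 and 37.6 CPM on stimulated P(rGO), against 131 and 68.9 CPM on plates (-1.59, SE 0.31, adjusted p 0.0228). KIF20A, a kinesin of cytokinesis, had 4.70 and 6.43 CPM on stimulated P(rGO) and 35.3 and 15.5 CPM on plates, a log2 fold change of -2.19. CENPF, BIRC5, CCNA2, BUB1B and KIF11, which serve the kinetochore, the spindle and entry into mitosis, were called at -1.42, -1.49, -1.51, -1.56 and -1.32. PLK1 and CDK1, kinases of mitotic entry, were at -1.57 (adjusted p 0.063) and -1.08 (adjusted p 0.0583) and were not called.

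Plate replicate 1 was above plate replicate 2 for all 24 mitosis genes tested, and the list summed to 430 and 526 CPM on stimulated P(rGO), 825 and 869 CPM on unstimulated P(rGO) and 1621 and 874 CPM on plates. Both stimulated libraries were thus below both unstimulated ones, which lay just below plate replicate 2. Without plate replicate 1 the list median was -0.79 with no call. Without stimulated replicate 1 it was -1.22 with no call, without stimulated replicate 2 -1.51 with 1 call, and without plate replicate 2 -1.74 with 21. The count was 18 without the untreated libraries, 23 without the low-count filter and 21 with DESeq2. On unstimulated P(rGO), which shares the plate libraries, no member was called and the median was -0.57. The list median of stimulated over unstimulated P(rGO) was -0.84. Of the 24 genes, 23 were below 0, as were 9101 of all 18081 genes tested. By edgeR's quasi-likelihood test 15 of the 24 had an unadjusted p under 0.05, as had 986 of all genes tested. None of the list passed after adjustment over all genes tested.

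DNA replication genes were called lower for 3 of 24 tested members and higher for none, against 0.841% of all genes called lower. All 24 were below 0, with a median of -0.96. CDT1, which licenses replication origins, had 31.5 and 28.2 CPM on stimulated P(rGO), against 97.8 and 50.1 CPM on plates (log2 fold change -1.31, SE 0.28, adjusted p 0.0317). MCM7 and MCM2, subunits of the replicative helicase, were called at -0.89 and -1.28, MCM7 with 257 and 298 CPM on stimulated P(rGO) and 605 and 423 CPM on plates. Plate replicate 1 was again the higher plate library for all 24, and the median without it was -0.54 with no call. Leaving out either stimulated replicate also left no call, with medians of -0.93 and -1.13. The count was 13 without plate replicate 2, 22 without the untreated libraries, 23 without the low-count filter and 10 with DESeq2. The summed list was 1105 and 1208 CPM on stimulated P(rGO), 1323 and 1233 CPM on unstimulated P(rGO) and 2849 and 1694 CPM on plates. CDK6, a kinase of the G1 phase, fell to 96.7 and 103 CPM on stimulated P(rGO), against 222 and 159 CPM on plates (log2 fold change -0.94). It was the 1 call among 11 tested G1 cyclins and CDK inhibitors, against 1.68% of all genes called. The median of that list was 0.01, with 6 members above 0 and 5 below.

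The start-proximal promoters of MKI67 and BUB1B, both called lower, are shown for the cell cycle homology region, the binding sequence of the DREAM complex. Each runs from 60 bases before the RefSeq start up to it (GRCh38.p14), MKI67 at chr10:128126424-128126483 on the minus strand and BUB1B at chr15:40161009-40161068 on the plus strand, with TTTGAA in capitals, searched on both strands.
MKI67: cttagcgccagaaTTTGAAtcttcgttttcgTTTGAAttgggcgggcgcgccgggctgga
BUB1B: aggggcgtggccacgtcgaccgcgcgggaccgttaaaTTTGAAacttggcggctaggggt
Within 250 bases before the start, 12 of 19 mitosis genes with a promoter in the table held this sequence, against 13.6% of all 27305 promoters. FOXM1 and BIRC5 were not analysed here.

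**Figure D3:**
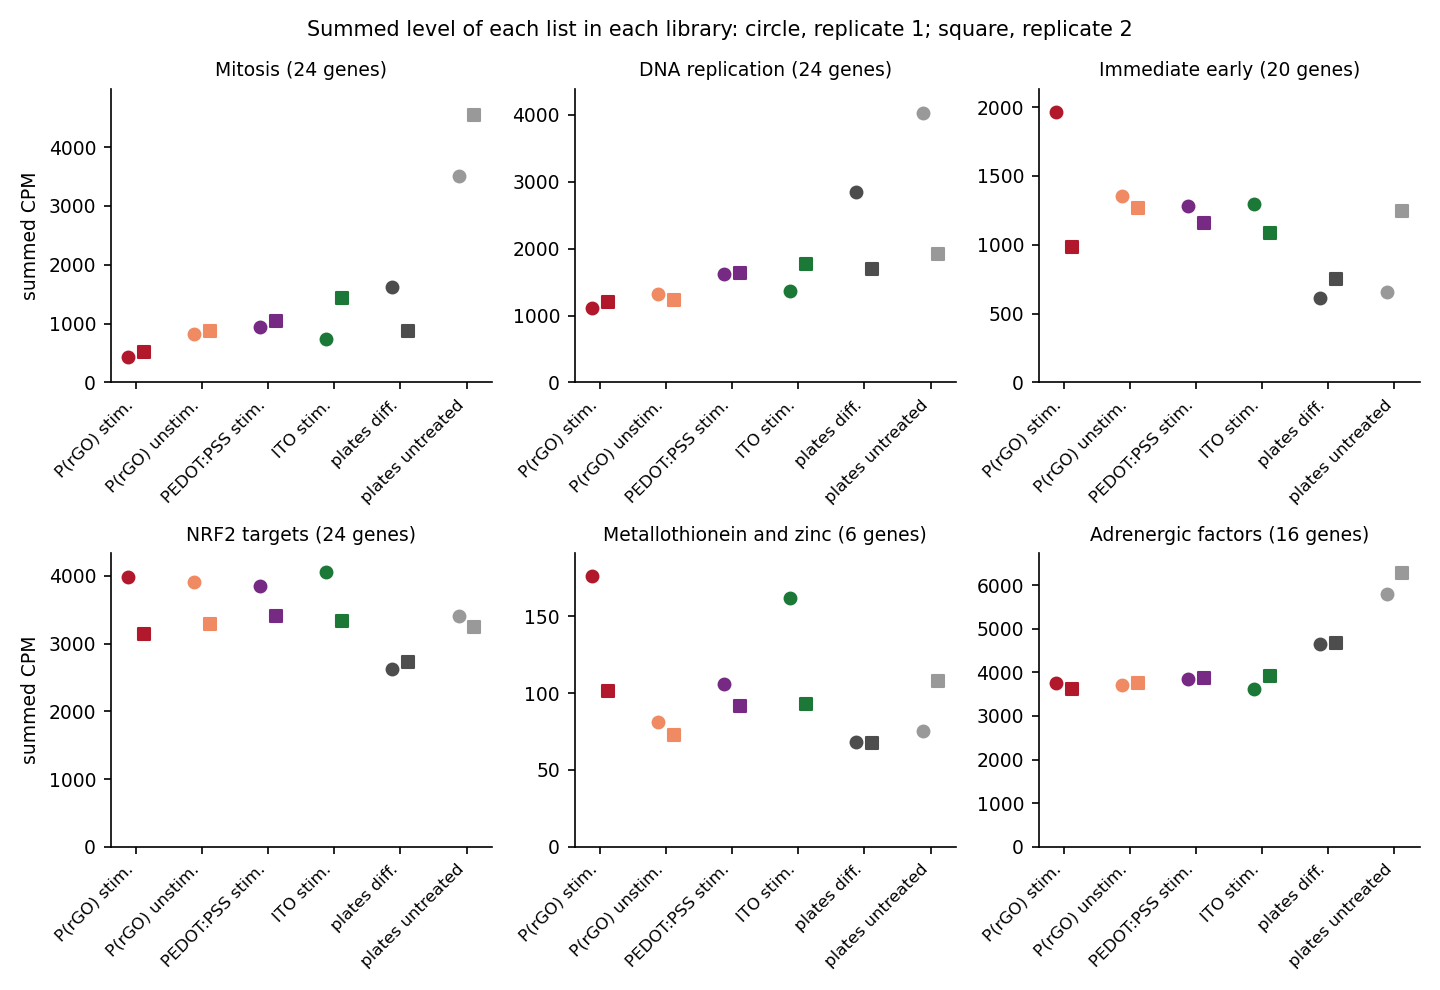
Summed CPM of the tested members of 6 gene lists in each library, by group from stimulated P(rGO) on the left to differentiated and untreated plates on the right, circles for replicate 1 and squares for replicate 2. The mitosis sum is lowest in the 2 libraries of stimulated P(rGO) (430 and 526 CPM), and the immediate early and metallothionein sums separate the 2 stimulated replicates.

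Transcription factors of the adrenergic neuroblastoma identity were lower for 5 of 16 tested members, against 0.841% of all genes called lower. None was called higher, and the median was -0.66. INSM2, a zinc finger factor of neuroendocrine cells, had 29.7 and 24.5 CPM on stimulated P(rGO), against 96.6 and 71.3 CPM on plates (log2 fold change -1.63, SE 0.20, adjusted p 0.00302). MYCN, which is not amplified in SH-SY5Y, had 1.78 and 2.66 CPM on stimulated P(rGO), against 9.99 and 6.94 CPM on plates (-1.93, SE 0.36, adjusted p 0.0187). EYA1, TFAP2B and SOX11, developmental factors of the sympathetic lineage, were called at -1.17, -0.96 and -0.85. The core factors ISL1, GATA3 and HAND2 were at -0.43, -0.34 and 0.06 and were not called. Unstimulated P(rGO) was close to stimulated P(rGO) for INSM2, at 25.5 and 25.9 CPM, and for MYCN, at 2.00 and 2.43 CPM. Without stimulated replicate 1 INSM2 alone of the list was called, at -1.78, and without plate replicate 1 none was, with INSM2 at -1.40 (adjusted p 0.054).

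Of the catecholamine genes, DBH was called lower and MAOB higher among 15 tested, against 1.68% of all genes called. DBH, which turns dopamine into noradrenaline, had 327 and 322 CPM on stimulated P(rGO), against 1058 and 905 CPM on plates (log2 fold change -1.60, SE 0.27, adjusted p 0.0133), with 487 and 505 CPM on unstimulated P(rGO). MAOB, a mitochondrial amine oxidase, had 102 and 73.9 CPM on stimulated P(rGO), against 35.7 and 52.6 CPM on plates (0.99, SE 0.21, adjusted p 0.0344). TH, the first enzyme of the pathway, was at 9.14 and 0.744 CPM on stimulated P(rGO) and 0.597 and 0.849 CPM on plates, and was not called (adjusted p 0.217). Without plate replicate 1 DBH stood at -1.48 (adjusted p 0.163) and MAOB at 0.74, and without stimulated replicate 1 at -1.61 and 0.74, with neither called.

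Receptor tyrosine kinases gave 3 falls of 22 tested members of their list, against 0.841% of all genes called lower. KIT, the stem cell factor receptor, had 0.732 and 1.97 CPM on stimulated P(rGO), against 14.2 and 4.84 CPM on plates (log2 fold change -2.81, SE 0.53, adjusted p 0.0213). ALK, a receptor often mutated in neuroblastoma, had 217 and 278 CPM on stimulated P(rGO), against 461 and 496 CPM on plates (-0.95, SE 0.20, adjusted p 0.0294), and PDGFRA was called at -1.74. None of the list was called without stimulated replicate 1 or without plate replicate 1, with KIT at -2.27 and -1.84. The neurotrophin list, with the BDNF receptor NTRK2 at 288 and 496 CPM on stimulated P(rGO) and 392 and 570 CPM on plates, had no call among 16 genes. Genes of retinoic acid handling had none among 16, although CYP26A1, the enzyme that degrades retinoic acid, had 39.6 and 50.0 CPM on stimulated P(rGO) and 2.71 and 21.1 CPM on plates (adjusted p 0.251).

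Axon guidance genes changed in both directions, with 3 of 34 tested members called higher and 4 lower, against 0.835% and 0.841% of all genes. SLIT1, a secreted repellent of growing axons, fell to 54.9 and 93.3 CPM on stimulated P(rGO), against 262 and 240 CPM on plates (log2 fold change -1.76, SE 0.22, adjusted p 0.00302), and kept its call without stimulated replicate 1, at -1.43. NRP2, a receptor of class 3 semaphorins, had 1.15 and 0.957 CPM on stimulated P(rGO), against 5.75 and 6.19 CPM on plates (-2.50, SE 0.34, adjusted p 0.0057). RTN4RL1, a relative of the Nogo receptor, had 0.732 and 1.12 CPM on stimulated P(rGO), against 5.54 and 5.79 CPM on plates (-2.61, SE 0.42, adjusted p 0.0115), and SEMA6A, a membrane semaphorin, was called at -1.37. The rises were in semaphorins: SEMA3C had 47.6 and 20.1 CPM on stimulated P(rGO) against 12.3 and 8.19 CPM on plates (1.73), SEMA3D was called at 4.82 and SEMA6D at 0.63. Without plate replicate 1 no member was called, with SLIT1 at -1.69 (adjusted p 0.054).

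Adhesion and matrix genes were mixed too. Of 31 tested members of the adhesion list, 2 were called higher and 1 lower, against 0.835% and 0.841% of all genes. CDH11, a mesenchymal cadherin, had 318 and 254 CPM on stimulated P(rGO), against 83.3 and 132 CPM on plates (log2 fold change 1.41, SE 0.20, adjusted p 0.00621), and the integrin ITGA4 was called at 1.76. TLN2, which links integrins to actin, had 40.0 and 47.2 CPM on stimulated P(rGO), against 93.6 and 84.2 CPM on plates (-1.03, SE 0.17, adjusted p 0.0133). In the matrix list, 2 of 37 tested members were called higher and 3 lower, against 0.835% and 0.841% of all genes. LUM, a collagen-binding proteoglycan, had 14.3 and 7.17 CPM on stimulated P(rGO), against 1.85 and 3.00 CPM on plates (2.14, SE 0.37, adjusted p 0.0144). SPOCK1, a secreted proteoglycan, had 14.1 and 28.4 CPM on stimulated P(rGO), against 188 and 93.4 CPM on plates (-2.73, SE 0.58, adjusted p 0.0323). SERPINE2 and TIMP3, inhibitors of extracellular proteases, were called at -3.63 and -1.07. Without stimulated replicate 1 no gene of the adhesion and matrix lists was called, and the median of the matrix list was -0.22, beside 0.19 with all libraries. Without plate replicate 1 none was called either, with CDH11 at 1.11 (adjusted p 0.0811).

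Neuropeptide genes gave 3 calls of 15, all higher, against 0.835% of all genes called higher. The list median was 0.275. Against the same plates, unstimulated P(rGO) had 5 members called higher and none lower, with a median of 0.65. Between stimulated and unstimulated film 13 of the 15 were below 0 and 2 above. VGF, a secreted neuropeptide precursor induced by neurotrophins, had 7574 and 2856 CPM on stimulated P(rGO), against 975 and 1704 CPM on plates (log2 fold change 1.96, SE 0.43, adjusted p 0.0362). VIP, a vasodilating peptide, had 50.5 and 38.2 CPM on stimulated P(rGO), against 9.23 and 13.9 CPM on plates (1.94, SE 0.39, adjusted p 0.0268). SCG2, a granin, was called at 1.15. VGF, VIP and SCG2 stood at 2.05, 3.07 and 1.48 on unstimulated P(rGO) over the same plates. None of the 3 was called without stimulated replicate 1 or without plate replicate 1, where VGF stood at 1.09 and 1.61. At 1.68% of all genes called, lists of this size can be without a call by that share alone, and none fell among 31 genes of synaptic vesicles (median 0.20), 11 sodium channels (0.26) or 16 neurotrophin genes (-0.07). Of 29 genes of the neurite cytoskeleton, MAP1A, a microtubule-associated protein, was called at 0.95 (adjusted p 0.0494). That call was lost with relative log expression scaling (adjusted p 0.0536), without either stimulated replicate, and without plate replicate 1, where it stood at 0.57. STMN2, MAP2 and GAP43 were at -0.03, -0.20 and 0.44 and were not called. KCNT1, a sodium-activated potassium channel, was the 1 call among 17 potassium channels (median -0.03), at 1.79. ATP2B1, a calcium pump, was the 1 call among 20 calcium channels and pumps (median -0.06), at 0.92. Of 15 glutamate and GABA receptor genes (median -0.18), GRIN1 and GRM8 were called, at -1.06 and -1.49. Of all genes, 1.68% were called.

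The remaining largest changes have varied roles. GPNMB, a glycoprotein of lysosomes and melanosomes, had 15.6 and 7.28 CPM on stimulated P(rGO), against 0.651 and 0.699 CPM on plates (log2 fold change 4.07, SE 0.69, adjusted p 0.0144). BHLHE40, a transcriptional repressor, had 9.51 and 1.44 CPM on stimulated P(rGO), against 0.271 and 0.599 CPM on plates (3.62, SE 0.81, adjusted p 0.0398), and KLHDC8A had 21.4 and 12.01 CPM on stimulated P(rGO), against 0.977 and 3.60 CPM on plates (2.85, SE 0.55). EPAS1 (chromosome 2 from 46293667 to 46386703) fell to 5.64 and 8.18 CPM on stimulated P(rGO), against 140 and 76.0 CPM on plates (-3.97, SE 0.63, adjusted p 0.01), while no other gene of the 18 tested for hypoxia was called and HIF1A was at 0.09. TXNIP, an inhibitor of thioredoxin, had 8.15 and 15.7 CPM on stimulated P(rGO), against 96.3 and 47.8 CPM on plates (-2.60, SE 0.47, adjusted p 0.0169). RPH3A, a synaptic vesicle effector, had 3.24 and 5.95 CPM on stimulated P(rGO), against 44.0 and 23.7 CPM on plates (-2.88, SE 0.40, adjusted p 0.0057). SULF2, an extracellular heparan sulfatase, had 3.08 and 7.49 CPM on stimulated P(rGO), against 68.2 and 31.4 CPM on plates (-3.23). NELL1, PTPRD and SMOC1 fell by 3.96, 3.08 and 2.87 on the log2 scale. Each of these genes lost its call when plate replicate 1 was left out, while its direction could hardly change, as its groups do not overlap.

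**Figure D4:**
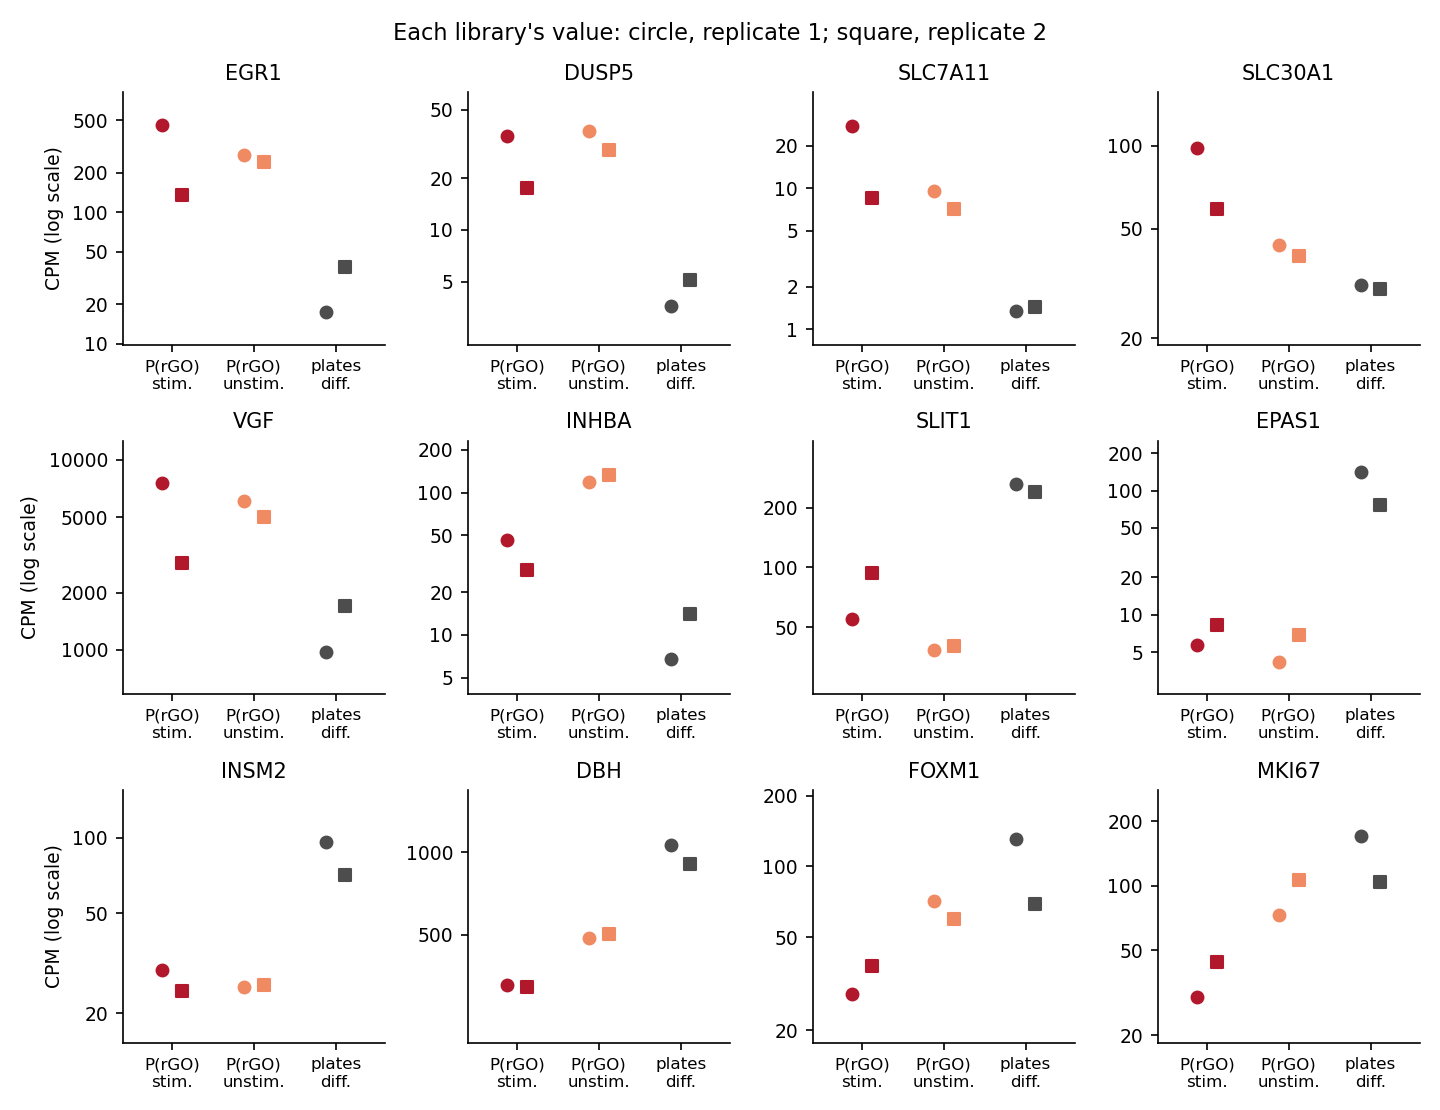
CPM on a log scale of 12 genes in the 2 libraries each of stimulated P(rGO), unstimulated P(rGO) and differentiated plates, circles for replicate 1 and squares for replicate 2. In each panel both stimulated libraries lie on 1 side of both plate libraries. For INHBA and SLIT1 stimulated P(rGO) lies between unstimulated P(rGO) and plates. It lies below both for MKI67, FOXM1 and DBH, and above both for SLC30A1.

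Housekeeping gene families were too small for a lack of calls to set them apart from all genes, of which 1.68% were called. Genes of the large ribosomal subunit had a median log2 fold change of -0.43 with all 25 below 0, and those of the small subunit -0.43 with 21 of 22 below 0, and none of either list was called. On unstimulated P(rGO) the medians were -0.68 and -0.62. Ribosomal protein genes have many near-identical copies and took 3.94% of assigned reads in plate replicate 1 and 2.96% in plate replicate 2. Nuclear genes of oxidative phosphorylation had a median of 0.01 over 34 genes, glycolysis 0.09 over 18, and neither had a call. All 20 enzymes of cholesterol synthesis were above 0 with a median of 0.50, against 0.90 on unstimulated P(rGO), but SC5D alone was called, at 0.57.

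**Figure D5:**
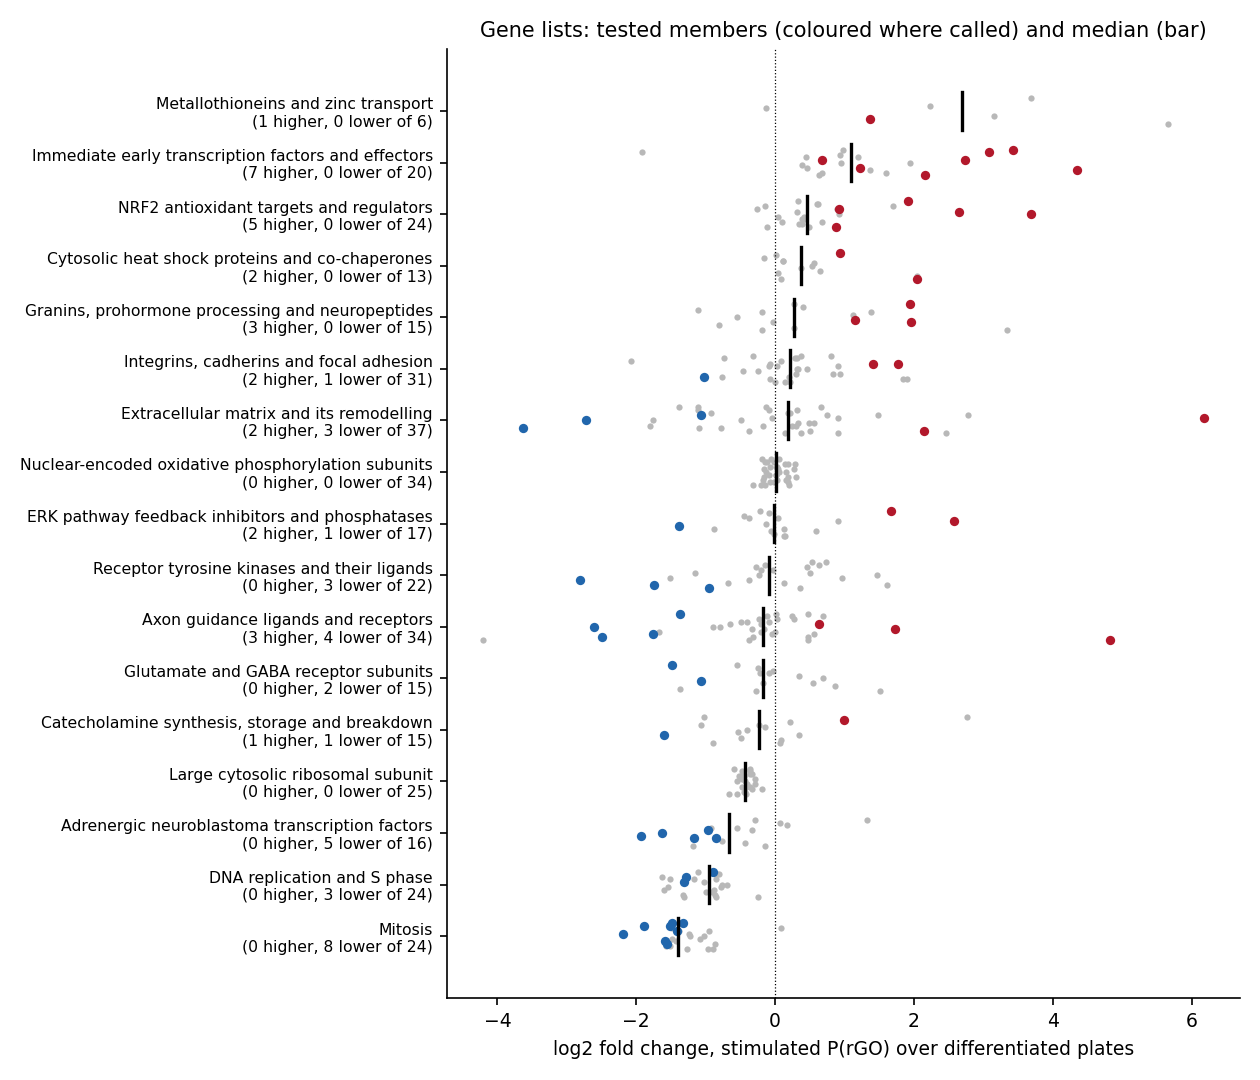
Log2 fold change of stimulated P(rGO) over differentiated plates for the tested members of 17 gene lists, 1 row per list, with called genes in red (higher) or blue (lower), other genes in grey and the list median as a black bar. Medians run from 2.69 for metallothionein and zinc genes to -1.40 for mitosis genes, and the 8 called mitosis genes are all lower.

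Stimulated against unstimulated P(rGO) compares films that differ by label in the stimulation alone, with the plates left aside. No gene was called in this comparison (0%) by edgeR's quasi-likelihood test, and DESeq2 called 12. By the edgeR test 986 of 18081 genes had an unadjusted p under 0.05. Without any difference, a share of 0.05 of all genes would be expected under that threshold. The smallest adjusted p was 0.292, for ENC1, an actin-binding protein of neurons, which had 31.2 and 38.0 CPM on stimulated P(rGO) and 141 and 196 CPM on unstimulated P(rGO) (log2 fold change -2.28, SE 0.36). ENC1 on plates was at 26.5 and 38.2 CPM. CTSF, a lysosomal protease, had 102 and 99.2 CPM on stimulated P(rGO) and 55.2 and 51.3 CPM on unstimulated P(rGO), and was called without the untreated libraries (0.93, adjusted p 0.00343). CTSF on plates was at 103 and 105 CPM, so that for this gene, as for ENC1, stimulated libraries lay near the plates and unstimulated ones away from them.

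Other genes called against plates showed a smaller distance from plates with stimulation than without. INHBA, the activin subunit, had 46.2 and 28.5 CPM on stimulated P(rGO), 119 and 132 CPM on unstimulated P(rGO) and 6.73 and 14.03 CPM on plates, with a log2 fold change of -1.75 between stimulated and unstimulated film (unadjusted p 0.000485, adjusted p 0.667). SGK1, a kinase induced by steroids and serum, had 44.9 and 39.7 CPM on stimulated P(rGO), 103 and 87.9 CPM on unstimulated P(rGO) and 6.41 and 15.8 CPM on plates. SEMA3C, VIP, LUM and SLIT1 lay in the same order, with differences of -1.50, -1.13, -1.32 and 0.92 between stimulated and unstimulated film, none past the threshold by edgeR's quasi-likelihood test. FLRT1, an adhesion protein, had 7.47 and 7.33 CPM on stimulated P(rGO), 1.55 and 2.55 CPM on unstimulated P(rGO) and 27.0 and 32.7 CPM on plates. DESeq2 called SEMA3C, INHBA and FLRT1 between the film groups, with adjusted p of 0.018, 0.0212 and 0.0459. Of the 303 genes called against plates, 75 had an unadjusted p under 0.05 between stimulated and unstimulated P(rGO), as had 986 of all 18081 genes tested. The stimulated mean was the nearer to plates for 35 of the 75 and the farther for 40, MKI67, FOXM1, BUB1B, SLC30A1 and DBH among these 40. The 303 genes were chosen by their distance from plates in the same stimulated libraries, so these counts are a description.

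Unstimulated P(rGO) differed from plates in 838 genes (4.63%), 541 higher and 297 lower. These calls share the 2 plate libraries with those above, and without plate replicate 1 they numbered 100. By the same rule, large changes were ARHGAP6, a GTPase-activating protein, at 4.86, EGR3 at 4.67, IL13RA2 at 4.56 and HS6ST3 at 3.61, and EPAS1 at -4.30, RTN4RL1 at -4.27, KIT at -4.26, ITGB5 at -3.94 and FLRT1 at -3.86. The corresponding values on stimulated P(rGO) were 4.24 for ARHGAP6, 4.35 for EGR3, -3.97 for EPAS1, -2.61 for RTN4RL1, -2.81 for KIT and -2.01 for FLRT1.

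Against the other stimulated films no gene was called by edgeR's quasi-likelihood test (0% for each). Against stimulated PEDOT:PSS 589 of 18081 genes had an unadjusted p under 0.05 by that test, where a share of 0.05 would be expected without any difference. DESeq2 called 4, ACTB, IQGAP3, MKI67 and FOXM1, all lower on P(rGO). Against stimulated ITO 636 of 18081 genes had an unadjusted p under 0.05 by edgeR's test, and DESeq2 called 9, among them IQGAP3, MKI67, FOXM1 and CCNA2. MKI67 had 30.2 and 44.0 CPM on stimulated P(rGO), 111 and 119 CPM on stimulated PEDOT:PSS and 63.3 and 167 CPM on stimulated ITO, with log2 fold changes of -1.63 against each film (unadjusted p 0.000438 and 0.00043). IQGAP3, a scaffold protein of dividing cells, had 34.3 and 36.8 CPM on stimulated P(rGO), 91.0 and 92.3 CPM on stimulated PEDOT:PSS and 72.4 and 125 CPM on stimulated ITO. The median of the mitosis list was -1.0 against stimulated PEDOT:PSS and -1.17 against stimulated ITO, with 23 of 24 genes below 0 in both, and that of the replication list was -0.53 and -0.52. Both comparisons share the 2 stimulated P(rGO) libraries with each other and with those above.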

How the data were processed

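Per the labels' protocols, the libraries were directional and made from polyadenylated RNA. The authors deposited 1 table of raw read counts per gene and library; STAR and HTSeq, with no version, and both GRCh38.p13 and hg38 are named in the submitters' processing notes. As no strand setting is given in the sources used here, overlapping or antisense genes may share reads. Of 69222 gene rows, 32387 held no count, and 5 summary rows were left out of library sizes; reads assigned to no gene were 8.95% to 10.01% of uniquely placed reads on stimulated P(rGO) and 7.75% to 7.88% on plates. Symbols matched 62639 gene IDs.

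Counts were analysed in R 4.3.3 with edgeR 4.0.16: filter by expression over the 8 groups (18081 genes left), scaling by the trimmed mean of M values, and a robust quasi-likelihood fit with 1 mean per group over all 16 libraries (8 residual degrees of freedom). A gene was called where its p, adjusted by Benjamini and Hochberg, was at most 0.05; the median SE of a log2 fold change was 0.255. SE is the log2 fold change over the root of F. CPM uses scaled library sizes, is not per length, and serves to compare libraries for 1 gene. The fit was tested on simulated data. With 2 libraries a group, precision rests on the spread estimated over all groups.

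Named genes were, in each direction, the 10 with the largest change among called genes with a mean of at least 5 CPM in 1 group, groups that do not overlap and no clone, non-coding or pseudogene symbol, and the 2 smallest p-values in each of the 12 lists with most calls; in the other comparisons up to 5 per direction; further list members were named by role. Some genes that this rule or the lists would name are not reported here. The comparison, the 48 lists of 984 symbols (836 tested) and the rule were chosen with earlier results of these data known. Lists are described by counts and medians and were not tested. Sequences are from RefSeq (GRCh38.p14), gene positions from GENCODE (GRCh38). Alternatives were relative log expression scaling, no filter, a replicate block, DESeq2 1.42.0, fits without the untreated libraries or with only the 4 libraries compared, and leaving out each replicate; a crossed block and leaving out a replicate with the untreated libraries were added after seeing the data.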

Additional observations from a re-analysis of the deposited data

Results flagged for a closer look

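Reads that were placed at 1 position but assigned to no gene made up 9.479% ± 0.752 of uniquely placed reads on stimulated P(rGO) (SD, n = 2) and 7.814% ± 0.0948 on plates (SD, n = 2). This signal lies outside the gene counts, and both stimulated libraries, at 10.01% and 8.947%, were above both plate libraries, at 7.881% and 7.747%. Unstimulated P(rGO) had 7.538% ± 0.37 (SD, n = 2). Which sequences these reads came from was not analysed here.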

How the results depend on the processing

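Against plates, stimulated P(rGO) gave 303 calls as reported, 297 with relative log expression scaling, 1211 without the low-count filter, 1132 without the untreated libraries, 766 with DESeq2, 98 with only the 4 libraries compared, and from 1 to 624 when 1 replicate was left out. With the untreated libraries left out too, leaving out 1 replicate gave 152, 1815, 99 and 2346 calls, for stimulated replicates 1 and 2 and plate replicates 1 and 2. Unstimulated P(rGO) gave 838 calls, 1625 without the filter, 2183 without the untreated libraries, 1408 with DESeq2 and 100 to 1023 when 1 replicate was left out. Between stimulated and unstimulated P(rGO), where 0 genes were called, 168 were called without the filter, 1 without the untreated libraries and 12 with DESeq2. Against stimulated PEDOT:PSS the counts were 137 without the filter and 4 with DESeq2, and against stimulated ITO 164 and 9. The cause of these differences was not tested. Where a replicate was left out, the lone library was assumed to vary like the other groups.

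Replicate numbers were not taken as pairs: deviations of same-numbered libraries correlated at -0.115 between stimulated P(rGO) and plates and from -0.189 to 0.294 over 28 pairs of groups. The correlation was over 0.1 for 16 of the 28. It was 0.276 between stimulated and unstimulated P(rGO), and 0.287 and 0.294 between stimulated P(rGO) and stimulated PEDOT:PSS and ITO. With the replicate block no gene was called in any of these film comparisons. The replicate block gave 330 calls for stimulated and 938 for unstimulated P(rGO) against plates, and a block with crossed numbers 366 and 934. Of 81 genes followed, 6 lost their call with the block (VGF, MCM7, KIF11, MAP1A, SOX11 and TFAP2B). Of the 40 genes the naming rule chose, 11 lost it with only the 4 libraries, 36 without stimulated replicate 1, 7 without stimulated replicate 2, 40 without plate replicate 1 and 5 without plate replicate 2. None reversed under any of these alternatives, but with groups that do not overlap, leaving out a library could hardly reverse a gene. Depth limits genes of few reads, such as HSPA6 with 2 reads on plates.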

Other observations

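Some genes had replicates that differed more than the groups. CYP26B1, which degrades retinoic acid, was at 603 and 1501 CPM on stimulated P(rGO) and 212 and 1417 CPM on plates. TH was higher in replicate 1 than in replicate 2 of every film group, with 9.14 and 0.744 CPM on stimulated P(rGO), 3.72 and 0.599 CPM on stimulated PEDOT:PSS and 4.04 and 0.846 CPM on stimulated ITO. Without stimulation it had 2.46 and 1.10 CPM on P(rGO), 2.17 and 1.19 CPM on PEDOT:PSS and 2.55 and 1.048 CPM on ITO.

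ACTB, cytoplasmic actin, was at 1686 and 1644 CPM on stimulated P(rGO), 2628 and 2745 CPM on unstimulated P(rGO), 2815 and 2826 CPM on stimulated PEDOT:PSS, 2082 and 2738 CPM on stimulated ITO and 1547 and 2019 CPM on plates. It was called by DESeq2 between stimulated and unstimulated P(rGO), and not by edgeR's quasi-likelihood test (adjusted p 0.667). ACTB has many near-identical copies. TLE6 had 9.25 and 12.8 CPM on stimulated P(rGO), 4.52 and 3.70 CPM on unstimulated P(rGO) and 14.2 and 15.7 CPM on plates, and DESeq2 called it between the 2 film groups while edgeR's quasi-likelihood test gave an adjusted p of 0.338.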
